A study of Mus musculus with 2 samples.

Results

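Transcripts of 10 glucose use genes were measured in single cells of mouse femurs. The genes were Slc2a1, Slc2a3, Hk1, Hk2, Pfkl, Aldoa, Pgk1, Ldha, Pdk1 and Pdk4, found by their symbols among 28006 features. They were selected on their place in glucose use and on their levels across these same classes, so those levels are given as a description, without a test. The cells came from 2 mice of 1 group, Mouse #1 and Mouse #2, with 1 library each, and all comparisons were between kinds of cells within these mice. The genotype was Cxcl12(GFP/+); Cxcl12-iCreER; R26R(tdTomato/+), tamoxifen was injected at postnatal day 21 and femurs were collected at day 28. The GFP allele reports Cxcl12 transcription, and the creER is carried by a bacterial artificial chromosome transgene with Cxcl12 regulatory sequence. The distal growth plates had been removed from the bones. The labels differ on the sort, since 1 field names tdTomato+ cells and others name GFP+ cells. For these mice the paper reports a sort gate on high GFP. It treats the myeloid, lymphoid and erythroid clusters as contamination. The blood classes here therefore need not represent the blood cells of the marrow, nor the endothelial-like class its endothelium. Mice without tamoxifen were not analysed here, so no treatment could be compared.

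Glucose enters cells through facilitative transporters and is trapped by hexokinases as glucose 6-phosphate. The glycolytic enzymes turn it into pyruvate, which lactate dehydrogenase can reduce to lactate. Pyruvate can otherwise enter mitochondria, where the pyruvate dehydrogenase complex makes acetyl-CoA. The pyruvate dehydrogenase kinases, Pdk1 and Pdk4 among them, phosphorylate that complex and slow this step. Pdk4 is known as a gene induced by fasting, glucocorticoids and fatty acids, and Pdk1 as a target of the hypoxia-inducible factors. Osteoblasts are known to use much glucose by glycolysis, and red blood cells lack mitochondria once mature.

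The libraries held 54940400 and 88790688 UMIs, molecular tags that count each captured transcript once. A barcode counted as a cell from 1000 genes upwards and up to 15% mitochondrial UMIs, which kept 2750 in Mouse #1 and 4582 in Mouse #2, at median depths of 12966.5 and 12190 UMIs. The libraries shared 7 of these barcodes. Clustering without the genes described here gave 18 clusters, of which 16 were named for 7 classes by fixed marker genes. Since these markers gave the names, each class was bound to be high in its own list, and the sums describe by how much. The summed level of the reticular list was 15057 to 17486 CPM, UMIs scaled to 1000000 per sum, in the reticular-like cells and at most 5123 in any other class. That of the preosteoblast list was 27012 to 41873 CPM in the preosteoblast-like cells and at most 14091 elsewhere. Hemoglobins took 35.4 and 31.0% of UMIs in the erythroid-like cells and at most 0.401% elsewhere, which lowers the CPM of every other gene in that class. The myeloid list took 160893 and 215418 CPM in the myeloid-like cells, which lowers the CPM of other genes there too. The eGFP level was 12849 and 12539 CPM in the reticular-like cells and 357 to 1145 CPM in the blood classes. All values below are sums over the cells of 1 class in 1 mouse, given as CPM for Mouse #1 and then Mouse #2.

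Promoter sequences are shown for Pdk4 and Hk2, which stood highest in bone-forming or fibroblastic stromal cells, and for Pgk1 and Ldha, which did not, because the hypoxia element core of these genes can be compared by eye. Windows of 250 bases before an annotated start were taken from RefSeq on GRCm38, the same assembly as mm10. They matched 9 of the 10 genes, and Slc2a3 had none. Capitals mark ACGTG or GCGTG, the forms of the hypoxia element core, on either strand, with CACGT and CACGC as their reverse forms. A CACGTG holds the A form on both strands and counts as 2 matches. Where a window overlapped an annotated exon, the exon bases were left off. Each line reads 5′ to 3′ on the strand of the gene.
Pdk4, chr6:5496310-5496528, minus strand: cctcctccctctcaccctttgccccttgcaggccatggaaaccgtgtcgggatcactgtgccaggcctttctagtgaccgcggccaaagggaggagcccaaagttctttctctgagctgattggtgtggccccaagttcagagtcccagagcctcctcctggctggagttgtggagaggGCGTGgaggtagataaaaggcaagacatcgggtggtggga
Hk2, chr6:82774455-82774704, minus strand: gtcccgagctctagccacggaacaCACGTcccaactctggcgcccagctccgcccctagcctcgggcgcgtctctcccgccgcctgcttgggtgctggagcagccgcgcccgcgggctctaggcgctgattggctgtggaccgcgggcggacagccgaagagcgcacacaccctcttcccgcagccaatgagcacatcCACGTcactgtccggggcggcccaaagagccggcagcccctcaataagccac
Pgk1, chrX:106186850-106187099, plus strand: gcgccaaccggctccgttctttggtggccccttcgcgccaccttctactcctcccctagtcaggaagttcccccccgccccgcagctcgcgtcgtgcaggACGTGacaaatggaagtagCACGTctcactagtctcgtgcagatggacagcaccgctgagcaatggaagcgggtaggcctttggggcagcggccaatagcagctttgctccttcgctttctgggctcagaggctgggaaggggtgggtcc
Ldha, chr7:46845554-46845803, plus strand: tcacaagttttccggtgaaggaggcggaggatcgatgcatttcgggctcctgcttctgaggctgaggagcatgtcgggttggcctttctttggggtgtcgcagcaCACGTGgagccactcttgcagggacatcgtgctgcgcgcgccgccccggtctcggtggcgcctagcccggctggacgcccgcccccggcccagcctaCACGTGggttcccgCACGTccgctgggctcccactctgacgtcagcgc

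The Ldha window held 5 matches of ACGTG, the Pgk1 and Hk2 windows held 2 each, and the Pdk4 window held 1 GCGTG, 71 bases before its start. At least 1 of the cores was found in 9 of the 9 genes with a window, and in 41.5% of all 27025 genes with a window. Of all 32851 windows, 16.6% held ACGTG and 28.2% held GCGTG. The forkhead element TGTTTAC, held by 3.17% of windows, and the nuclear receptor element AGGTCA, held by 14%, were searched on both strands too. The Pdk4 window held neither, and AGGTCA was found only in the Aldoa windows among the 14 windows of these genes. A match is a run of letters and was not tested as a binding site. The shown Ldha window lies inside the annotated span of the gene, at an inner start.

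Pdk4 (chr6:5483351-5496309, minus strand) was highest in the preosteoblast-like cells, at 163 and 166 CPM, from 1270 and 2888 UMIs. The reticular-like cells, the Cxcl12-rich stroma, held 35.7 and 38.0 CPM, and the periosteal-like cells held 11.7 and 19.2 CPM. In both mice the order of these 3 classes was the same, and their values did not overlap. Endothelial-like cells held 2.62 and 6.81 CPM, on 5 and 13 UMIs. Myeloid-like cells held 4.16 and 4.94 CPM, and lymphoid-like cells 3.36 and 5.32 CPM. Erythroid-like cells held 2.64 and 4.66 CPM. These 4 classes overlapped each other and lay below all stromal classes. Free RNA, read from barcodes of 1 to 100 UMIs, held 55.1 and 66.6 CPM of Pdk4, above the level of every class but the preosteoblast-like cells, and the part of free RNA in the low values was not tested. Per mouse, Pdk4 was 4.56 and 4.38 times as high in preosteoblast-like as in reticular-like cells. It was 9.76 and 7.75 times as high in reticular-like as in all blood cells together.

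**Figure D1:**
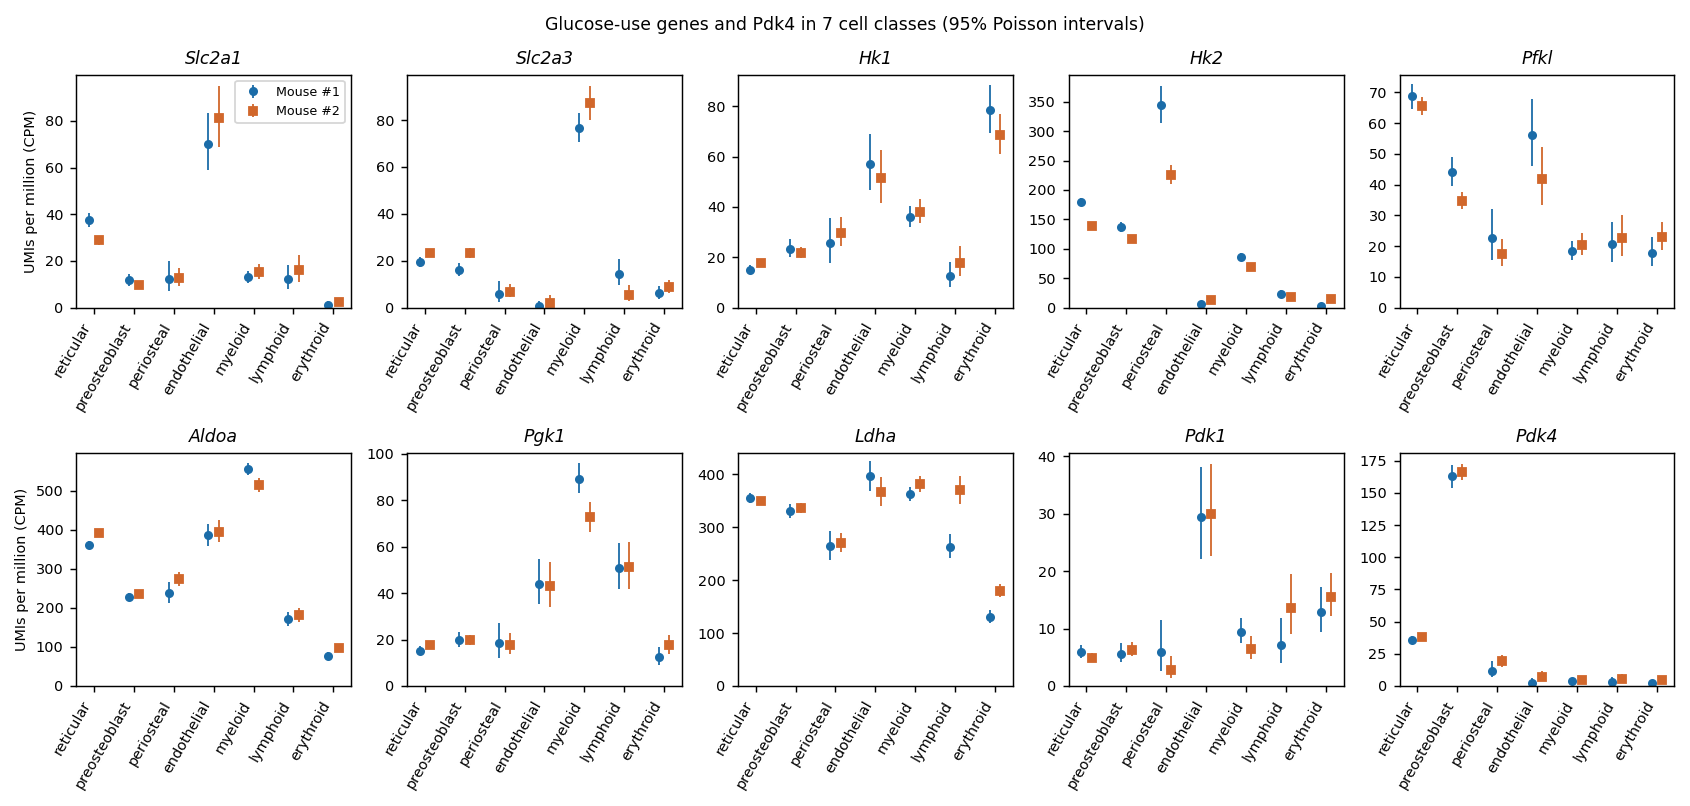
Level of the 10 glucose use genes (CPM, linear axis, 1 panel per gene with its own scale) in 7 classes of cells, with 1 point per mouse and 95% Poisson intervals of the UMIs. Pdk4 stands highest in preosteoblast-like cells at 163 and 166 CPM, Hk2 in periosteal-like cells and Slc2a1 in endothelial-like cells.

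The share of single cells with a Pdk4 UMI was taken after each cell was thinned to 2000 UMIs. In reticular-like cells it was 66 of 1229 cells in Mouse #1 (5.37%, with a Wilson interval at 95% from 4.24 to 6.78%) and 156 of 2402 in Mouse #2 (6.49%, from 5.58 to 7.55%). In preosteoblast-like cells it was 21.6% (18 to 25.6%) and 26.5% (23.7 to 29.6%). In blood cells it was 3 of 722 (0.416%) and 6 of 709 (0.846%), which gives the background. The intervals of these 2 stromal classes did not overlap each other, and both lay above those of the blood cells, at most 1.83%. In periosteal-like cells the share was 2 of 76 (2.63%, from 0.725 to 9.10%) and 7 of 236 (2.97%, from 1.44 to 5.99%), and these intervals overlapped those of the reticular-like and of the blood cells in both mice. Without thinning the shares were 25.5 and 25.4% in reticular-like, 59.1 and 73.0% in preosteoblast-like and 2.35 and 5.63% in blood cells, at median depths of 12450 and 11612, 15519 and 17164.5, and 12811 and 10601 UMIs. No thinned endothelial-like cell held a Pdk4 UMI, 0 of 150 and 0 of 136, which allows shares of thinned cells with a UMI of up to 2.00 and 2.21%, and without thinning 3.33 and 4.41% of these cells held 1. Pdk4 UMIs were unevenly spread over cells, since the tenth of cells with the most held 67.1 and 67.8% of the Pdk4 UMIs of reticular-like cells and 49.3 and 42.3% of those of preosteoblast-like cells.

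Within the classes Pdk4 also differed by cluster. The larger preosteoblast-like cluster, led by Slc20a2, held 170.0 and 184 CPM. The smaller one, led by the osteocalcin genes Bglap and Bglap2 of mature osteoblasts, held 61.3 and 76.1 CPM in 14 and 62 cells. The Slc20a2-led cluster was 2.78 and 2.41 times as high in Pdk4 as the Bglap-led cluster. Among reticular-like clusters, those led by Ccl2 and by Kcne4 were near each other, at 40.3 and 39.4 CPM and at 41.8 and 44.3 CPM. The one led by Bmp4 was lower, at 24.5 and 26 CPM. The cluster led by Lsmem1 held 33.5 and 26.2 CPM, and the shallow one led by Cxcl9 had 1 Pdk4 UMI in each mouse, 6.26 and 5.95 CPM with Poisson intervals up to 34.9 and 33.2 CPM. Immediate early genes, a sign of dissociation stress, summed to 20287 and 16026 CPM in the Lsmem1-led and 15067 and 13886 CPM in the Kcne4-led cluster, against 4753 and 4135 CPM in the Ccl2-led, 2303 and 2338 CPM in the Bmp4-led and 319 and 280 CPM in the Cxcl9-led cluster. The Bmp4-led and Cxcl9-led clusters had the lowest values in Pdk4 too, the latter on single UMIs. The Lsmem1-led cluster, highest in immediate early genes, lay below the Ccl2-led and Kcne4-led clusters in Pdk4, and the part of stress in these levels was not tested.

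**Figure D2:**
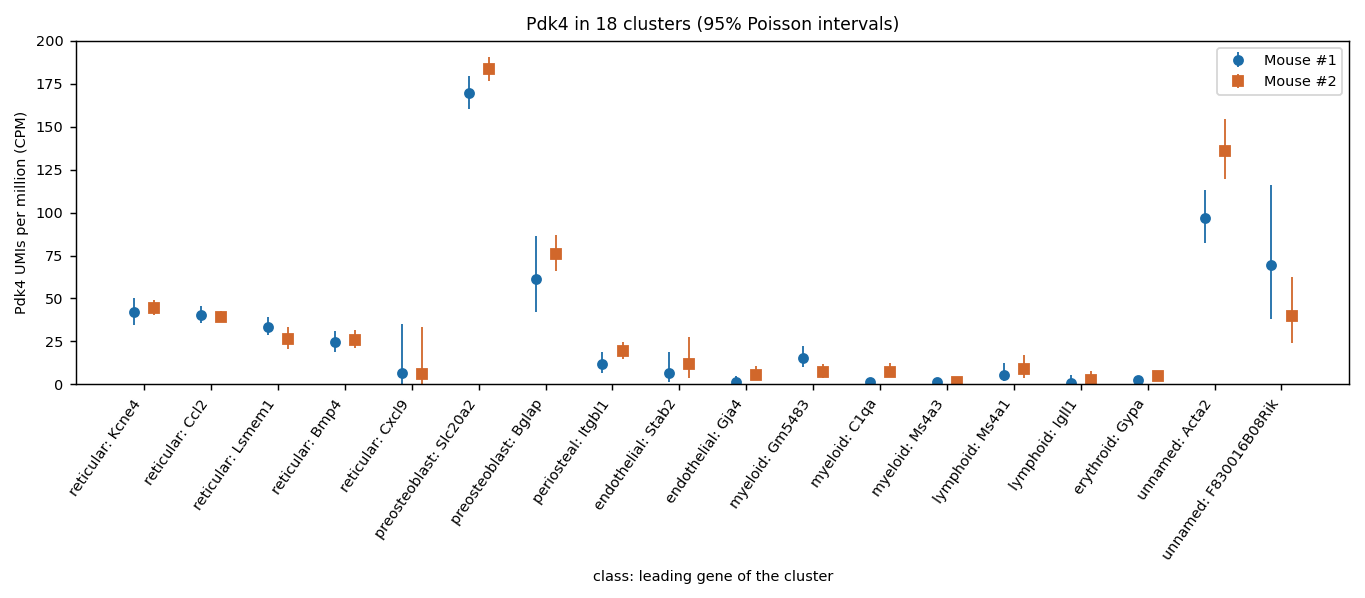
Pdk4 level (CPM, linear axis) in the 18 clusters, each labelled with its class and leading gene, with 1 point per mouse and 95% Poisson intervals. The Slc20a2-led preosteoblast-like cluster stands above the Bglap-led one, and blood and endothelial-like clusters lie near the axis.

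Pdk1 (chr2:71873224-71903858, plus strand), the other pyruvate dehydrogenase kinase described here, stood highest where Pdk4 was low. Endothelial-like cells held 29.4 and 29.9 CPM. Erythroid-like cells held 12.9 and 15.5 CPM, lymphoid-like cells 7.20 and 13.5 CPM and myeloid-like cells 9.42 and 6.48 CPM. Only the endothelial-like cells stood clear of the next class in this group. Preosteoblast-like cells held 5.64 and 6.33 CPM, reticular-like cells 5.91 and 4.88 CPM and periosteal-like cells 5.86 and 2.83 CPM, and these overlapped. Pdk1 was 4.97 and 6.13 times as high in endothelial-like as in reticular-like cells. Within the endothelium, the cluster led by Stab2, a gene of sinusoidal endothelium, held 47.7 and 42.2 CPM in only 28 and 27 cells, and the one led by Gja4, a gene of arterial endothelium, held 23.5 and 26.3 CPM. The ratio of Pdk4 to Pdk1 UMIs was 28.9 and 26.3 in preosteoblast-like, 6.04 and 7.79 in reticular-like and 0.0893 and 0.228 in endothelial-like cells. Such a ratio of UMIs is compared between classes only, since capture differs between genes.

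The glucose transporter genes differed in their highest class, endothelial-like for Slc2a1 and myeloid-like for Slc2a3, and reticular-like cells had the next highest mean for both. Slc2a1 (chr4:119108711-119137983, plus strand), the broadly expressed transporter also used at blood-tissue barriers, was highest in endothelial-like cells at 70.2 and 81.3 CPM. Reticular-like cells came next at 37.4 and 28.8 CPM. Preosteoblast-like cells held 11.7 and 9.90 CPM, and periosteal-like cells 12.4 and 12.7 CPM on 17 and 45 UMIs, with overlapping Poisson intervals. Reticular-like cells thus held 3.21 and 2.91 times the Slc2a1 level of preosteoblast-like cells, the opposite direction to Pdk4. Myeloid-like cells held 13.1 and 15.3 CPM, lymphoid-like cells 12.5 and 16.0 CPM, and erythroid-like cells 1.17 and 2.22 CPM. The lymphoid-like and myeloid-like values overlapped. The Stab2-led endothelial-like cluster held 143 and 204 CPM, 3.04 and 4.44 times the level of the Gja4-led cluster. The Slc2a1 levels of the reticular-like cluster led by Ccl2 were 39.5 and 34.7 CPM, and those of the Bmp4-led cluster were 23.0 and 14.6 CPM.

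Slc2a3 (chr6:122727809-122801640, minus strand), a transporter with high affinity for glucose known from neurons and white blood cells, was highest in myeloid-like cells at 76.6 and 87.2 CPM. Reticular-like cells held 19.5 and 23.3 CPM and preosteoblast-like cells 16.1 and 23.2 CPM, and these overlapped. Lymphoid-like cells held 14.4 and 5.32 CPM, erythroid-like cells 6.15 and 8.66 CPM, and the periosteal-like class 5.86 and 6.79 CPM. These 3 classes overlapped in that order and lay below the marrow stroma. The lymphoid-like values rest on 30 and 11 UMIs, found in 3.42 and 4.22% of cells without thinning. In lymphoid-like cells the myeloid list summed to 5041 and 159 CPM, and the part of myeloid transcripts in their Slc2a3 level was not tested. Endothelial-like cells held 0.524 and 2.10 CPM, on 1 and 4 UMIs. Among myeloid-like clusters, the one with the neutrophil genes Retnlg and Mmp8 among its leading genes held 285 and 222 CPM. The cluster led by Ms4a3 and Elane, genes of early granulocytes, held 33.6 and 40.1 CPM, so that the former was 8.47 and 5.54 times as high. The Slc2a1 to Slc2a3 ratio of UMIs was 1.92 and 1.24 in reticular-like, 0.722 and 0.427 in preosteoblast-like and 0.171 and 0.175 in myeloid-like cells. In endothelial-like cells it was 134 and 38.8, resting on those few Slc2a3 UMIs.

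The hexokinases separated stroma from endothelium and red cells. Hk2 (chr6:82725025-82774454, minus strand), the regulated hexokinase of insulin-responsive and growing cells, was highest in periosteal-like cells at 345 and 226 CPM, or 285 ± 84.1 (SD, n = 2). Reticular-like cells held 180.0 and 138 CPM and preosteoblast-like cells 137 and 117 CPM. The 3 stromal classes did not overlap, and all lay above myeloid-like cells at 86.8 and 68.7 CPM. Lymphoid-like cells held 22.6 and 18.4 CPM. Endothelial-like cells held 6.29 and 13.6 CPM and erythroid-like cells 3.22 and 14.2 CPM, which overlapped. Hk2 was 28.6 and 10.1 times as high in reticular-like as in endothelial-like cells. It also varied among reticular-like clusters, where the Ccl2-led cluster held 232 and 209 CPM and the Bmp4-led cluster 39.6 and 25.1 CPM. This difference of 5.86 and 8.34 times was larger than the 1.92 and 1.63 times between periosteal-like and reticular-like cells as wholes. The Kcne4-led cluster held 141 and 74.1 CPM and the Lsmem1-led cluster 220 and 125 CPM.

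Hk1 (chr10:62268855-62379908, minus strand), the general hexokinase and the one of red cells, had a different order. Erythroid-like cells held 78.5 and 68.6 CPM although hemoglobin took much of their UMIs, and endothelial-like cells held 57.1 and 51.4 CPM. The myeloid-like level was 36.1 and 38.1 CPM, the periosteal-like level 25.6 and 29.7 CPM and that of preosteoblast-like cells was 23.4 and 21.7 CPM. In the values of the 2 mice none of these 5 classes overlapped its neighbour, but some Poisson intervals did. Those of periosteal-like cells, on 35 and 105 UMIs, overlapped the myeloid-like ones in both mice and the preosteoblast-like one in Mouse #1. In Mouse #2 that of endothelial-like cells overlapped the erythroid-like and myeloid-like ones. Reticular-like cells held 15 and 17.7 CPM and lymphoid-like cells 12.5 and 17.9 CPM, and these overlapped at the low end. The Hk2 to Hk1 ratio of UMIs was 12 and 7.78 in reticular-like, 5.83 and 5.40 in preosteoblast-like and 13.5 and 7.60 in periosteal-like cells. In endothelial-like cells it was 0.110 and 0.265 and in erythroid-like cells 0.0410 and 0.207, the lowest of the 7 classes. In myeloid-like cells the ratio was 2.41 and 1.80, and in lymphoid-like cells 1.81 and 1.03.

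**Figure D3:**
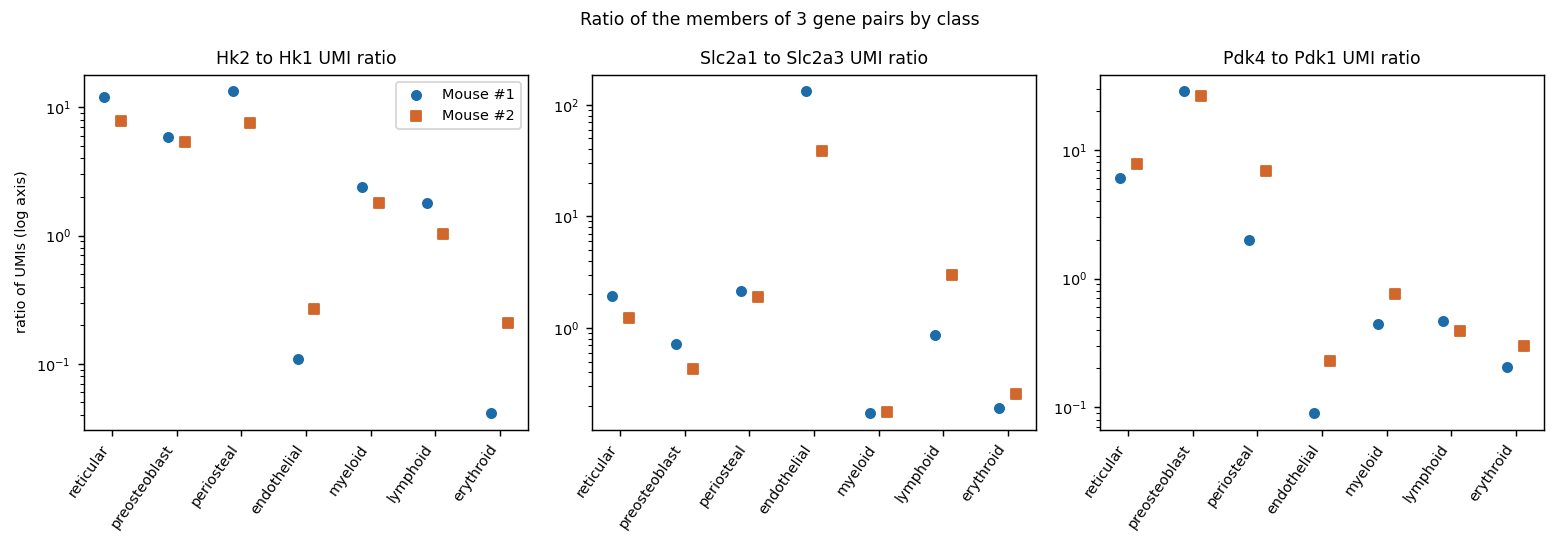
Ratio of UMIs (log axis) of Hk2 to Hk1, Slc2a1 to Slc2a3 and Pdk4 to Pdk1 in 7 classes, with 1 point per mouse. The Hk2 to Hk1 ratio is lowest in endothelial-like and erythroid-like cells, and the Pdk4 to Pdk1 ratio is highest in preosteoblast-like cells at 28.9 and 26.3.

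Pfkl (chr10:77986947-78010083, minus strand), a form of phosphofructokinase, the committed step of glycolysis, was the only gene of the 10 that stood highest in reticular-like cells, at 68.7 and 65.6 CPM. Endothelial-like cells held 56.1 and 41.9 CPM and preosteoblast-like cells 44.2 and 34.7 CPM, and these overlapped. The other 4 classes lay between 17.5 and 22.9 CPM and overlapped each other, but for 1 pair. Lymphoid-like cells at 20.6 and 22.7 CPM lay just above myeloid-like cells at 18.3 and 20.5 CPM. The former rest on 43 and 47 UMIs, and the Poisson intervals of these 2 classes overlapped in both mice, so their order was not resolved. Reticular-like cells held 1.55 and 1.89 times the level of preosteoblast-like cells and 3.75 and 3.20 times that of myeloid-like cells.

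Aldoa (chr7:126795234-126800751, minus strand), the aldolase of muscle and most tissues, and Pgk1 (chrX:106187100-106203699, plus strand), phosphoglycerate kinase, were highest in myeloid-like cells. Both have near-identical copies elsewhere in the genome, as has Ldha, so reads that could not be placed may be missing from their counts. Aldoa was 556 and 515 CPM in myeloid-like cells. Endothelial-like cells at 386 and 395 CPM and reticular-like cells at 361 and 392 CPM overlapped. Periosteal-like cells held 239 and 273 CPM and preosteoblast-like cells 228 and 235 CPM. Lymphoid-like cells held 171 and 181 CPM, and erythroid-like cells were lowest at 77.1 and 97.7 CPM. The order from reticular-like cells down had no overlaps in the values of the mice, and reticular-like cells held 1.59 and 1.67 times the Aldoa level of preosteoblast-like cells. The Poisson intervals of periosteal-like and preosteoblast-like cells overlapped in Mouse #1.

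Pgk1 was 89.3 and 72.5 CPM in myeloid-like, 50.9 and 51.3 CPM in lymphoid-like and 44.0 and 43.0 CPM in endothelial-like cells. The stromal classes were close to each other, at 19.7 and 19.8 CPM in preosteoblast-like, 18.3 and 17.8 CPM in periosteal-like and 15.3 and 17.5 CPM in reticular-like cells. Erythroid-like cells held 12.3 and 17.5 CPM and overlapped with reticular-like cells. Myeloid-like cells were thus 5.85 and 4.13 times as high in Pgk1 as reticular-like cells. Among lymphoid-like cells the cluster led by Igll1 and Dntt, genes of early B cells, held 72.4 and 66.7 CPM of Pgk1 and the Ms4a1-led cluster of later B cell genes 30.2 and 31.7 CPM. Aldoa was ordered the other way, at 114 and 133 CPM in the former and 227 and 242 CPM in the latter.

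Ldha (chr7:46841475-46855627, plus strand), the lactate dehydrogenase subunit that favours lactate, had the smallest ratio of highest to lowest class mean among the 10 genes. It was 396 and 366 CPM in endothelial-like and 362 and 382 CPM in myeloid-like cells, which overlapped. Reticular-like cells held 354 and 349 CPM, preosteoblast-like cells 331 and 336 CPM and periosteal-like cells 264 and 270.5 CPM. Lymphoid-like cells held 263 and 370 CPM, so that they overlapped with each of these classes. Erythroid-like cells were lowest at 131 and 180 CPM. Endothelial-like cells, the class with the highest mean of the mice, held 3.03 and 2.04 times the Ldha level of erythroid-like cells. In Mouse #2 alone the myeloid-like cells stood highest. Both lymphoid-like clusters held more Ldha in Mouse #2. The early B cell cluster held 385 and 520 CPM, 2.63 and 2.88 times the level of the Ms4a1-led cluster at 146 and 181 CPM. The part of each cluster in the lymphoid spread between mice was not tested. The Ccl2-led reticular-like cluster held 414 and 412 CPM and the Bmp4-led cluster 232 and 226 CPM.

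Across the 10 genes, the class with the highest mean was endothelial-like for 3, myeloid-like for 3, and erythroid-like, periosteal-like, preosteoblast-like and reticular-like for 1 each. No gene was highest in lymphoid-like cells.

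The genes whose pattern was most like that of Pdk4 were found by Pearson correlation of log2(CPM + 1) over the 14 sums of class and mouse, among 8799 genes. The sums share libraries and classes, so the values are descriptions. Among the 5 closest was Dlx6, a homeobox factor of skeletal cells, at 0.97. Cdh2, the N-cadherin, and Grb14, an adaptor of the insulin receptor, followed at 0.97 each, and Vldlr, a lipoprotein receptor, at 0.96. These were highest in preosteoblast-like cells, and Cdh2 had a mean of 409 CPM there and 15.4 CPM in its lowest class. Those most like Hk2 were Dtx4, Ncam1 and Abca9, at 0.97, 0.96 and 0.96. Those most like Pgk1 were the glycolytic gene Gapdh at 0.98, Arpc5 at 0.98 and Lcp1 at 0.98. Slc2a3 was closest to G6pdx, which opens the pentose phosphate pathway, at 0.94, then to F5 and G0s2 at 0.92 each. Slc2a1 was closest to Rbm7, Chmp5 and Tmed5 at 0.98, 0.96 and 0.96, and Hk1 to Slc22a4, Nxpe4 and Stom at 0.95, 0.92 and 0.92. Pfkl was closest to Rgs4, Clu and Mrps6 at 0.96, 0.95 and 0.93, and Aldoa to C1galt1c1, Rnf130 and Zyx at 0.97, 0.97 and 0.96. Ldha was closest to Hiat1, Gng5 and Wdr1 at 0.97, 0.96 and 0.95, and Pdk1 to Trim37, Mob2 and Amd1 at 0.96, 0.94 and 0.94. Among the 10 genes themselves, Aldoa and Ldha were the most alike at 0.86 and Hk2 and Pdk1 the most opposed at -0.82.

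Reticular-like cells were then divided by tdTomato transcripts, which mark cells where the Cxcl12-iCreER had acted. A cell was positive above the 99th percentile of blood cells of its mouse, 8.63 and 14.6 UMIs per 10000, which gave 497 and 974 positive and 735 and 1432 negative cells. None of the 10 genes passed an adjusted p of 0.05 by edgeR's quasi-likelihood test with Benjamini-Hochberg adjustment over 12183 genes. By edgeR 1 of the 10, Pdk4, had an unadjusted p under 0.05. By DESeq2 none of the 10 passed, and none had an unadjusted p under 0.05. Over all genes the same test called 0 genes, or 0%, with 445 at an unadjusted p under 0.05, and DESeq2 called 6.

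With the mouse as a block, since both kinds of cells of a pair come from 1 animal, 2 of the 10 genes were called against 5.14% of all genes. In this fit the spread was in effect estimated over all genes, so its p-values do not measure the spread of each gene between the mice. Pdk4 was lower in positive cells, at 30.2 and 33.9 CPM against 39.2 and 40.7 CPM (log2 -0.31 ± 0.081 SE, edgeR adjusted p = 0.00559). Slc2a1 was higher in positive cells, at 45.6 and 31.8 CPM against 31.7 and 27.0 CPM (log2 0.36 ± 0.085 SE, edgeR adjusted p = 0.000994). The positive and negative values of Pdk4 did not overlap. For Slc2a1 the lowest positive value, 31.77 CPM in Mouse #2, and the highest negative value, 31.74 CPM in Mouse #1, were nearly equal. Neither was called where any cell with 1 tdTomato UMI counted as positive, with adjusted p of 0.313 for Pdk4 and 0.0815 for Slc2a1 by edgeR with the block. The other 8 genes were between -0.29 and 0.21 on the log2 scale with the block and were not called. Positive cells were 29.1 to 49.1% of each reticular-like cluster. Within the 10 combinations of cluster and mouse, Pdk4 was lower in positive cells in 6 and Slc2a1 was higher in 7. In the Ccl2-led cluster positive cells held 32.6 and 31.3 CPM of Pdk4, and negative cells 46.3 and 46.0 CPM. In the Bmp4-led cluster it was the other way, at 26.1 and 36.1 CPM against 23.8 and 21.3 CPM.

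**Figure D4:**
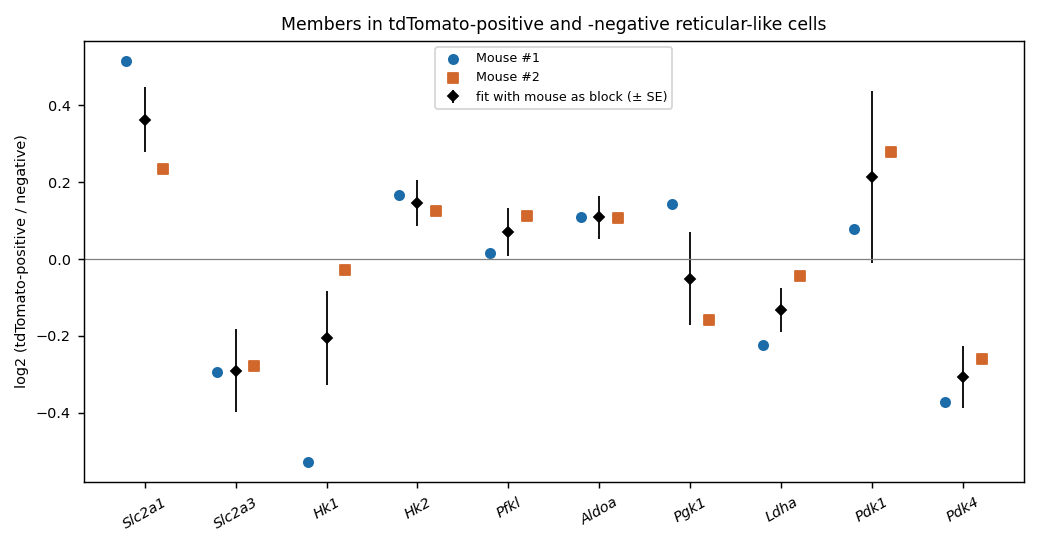
Log2 ratio of tdTomato-positive to tdTomato-negative reticular-like cells for the 10 genes, with 1 point per mouse and the estimate of the fit with a block for mouse ± SE. Slc2a1 lies above 0 and Pdk4 below 0 in both mice, at 0.36 and -0.31 in the fit.

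Other genes of glucose and fuel use were taken from 10 lists with 114 genes, of which 104 were tested. The classes were built by clustering the same cells with these genes left out, so the p-values of the following comparisons describe these classes and are not independent of them. They come from edgeR's quasi-likelihood test on the sums per class and mouse, with Benjamini-Hochberg adjustment over 13325 genes, and fold changes are on the log2 scale with SE. For stroma and for blood the fold change weighs the classes equally. The CPM beside it pools their cells, so larger classes weigh more and the ratio of the CPM can differ from the fold change. The size factors of DESeq2, used in edgeR in place of TMM, moved the median log2 fold change of all genes from 0.076 to -0.021 against endothelial-like cells and from 0.085 to -0.00011 against blood cells. The DESeq2 test as a whole gave -0.051 and -0.022.

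Between reticular-like and preosteoblast-like cells, 34 of the 104 genes passed the test, 25 higher and 9 lower in reticular-like cells. This was 32.7% against 22.8% of all genes, with 11.4% higher and 11.4% lower, and the median was 0.20 against -0.01. It fell to 16 genes without Mouse #1 and to 7 without Mouse #2. Glucocorticoids are known to induce Pdk4, and the list of FOXO and glucocorticoid genes holds, among others, their receptor gene and genes that respond to them. Pdk4 itself was lower in reticular-like cells, and a link between this list and Pdk4 was not tested. Of the 13 genes of the list, 7 were higher and 0 lower in reticular-like cells. They included Zbtb16 (2.48 ± 0.67, edgeR adjusted p = 0.0188), Irs2 (1.33 ± 0.18, adjusted p = 0.000333) and Tsc22d3 (1.20 ± 0.33, adjusted p = 0.020), an anti-inflammatory responder to glucocorticoids. Irs2, an insulin receptor substrate, had levels of 143 and 125 CPM against 55 and 52.6 CPM in preosteoblast-like cells, and the list's median was 0.88. Of the oxygen response genes outside glycolysis, 6 of 13 were higher and 0 lower, with a median of 0.83. Adm, the peptide adrenomedullin, was 35.6 and 43.8 CPM against 9.74 and 8.58 CPM (2.14 ± 0.30, edgeR adjusted p = 0.000390). Epas1, which encodes HIF-2α, was 719 and 864 CPM against 217 and 177 CPM (2.03 ± 0.33, adjusted p = 0.00116), and Mxi1, a MYC antagonist, was higher by 1.80 ± 0.21 (adjusted p = 0.000131).

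Of the glycolytic enzymes, 0 of 13 were higher and 3 lower in reticular-like cells, with a median of -0.15, or -0.17 without Pklr, which had 0 to 2 UMIs per class and mouse. Pkm, the pyruvate kinase of most tissues, was 58.6 and 64.6 CPM against 139 and 171 CPM (-1.32 ± 0.26, edgeR adjusted p = 0.00321). Pfkm, the muscle phosphofructokinase, was lower too, at -0.80 ± 0.19 (adjusted p = 0.00977), opposite to the order of Pfkl levels, and Bpgm was at -0.72 ± 0.22 (adjusted p = 0.0372). Of 6 glucose entry genes, the transporters Slc2a4 and Slc2a12 were higher and none was lower, by 2.15 ± 0.55 and 1.66 ± 0.32 (edgeR adjusted p = 0.0168 and 0.00290). Slc2a4 had only 2 UMIs in the preosteoblast-like cells of Mouse #1. Of 6 regulators, Myc and Pfkfb3, which makes the activator of phosphofructokinase, were higher by 1.01 ± 0.25 and 0.95 ± 0.29 (adjusted p = 0.0118 and 0.0351). Of 6 lactate genes, the monocarboxylate transporter Slc16a7 was higher by 1.34 ± 0.23 and Slc16a3 lower at -1.51 ± 0.44, the latter on 0.68 and 0.86 CPM against 1.67 and 2.65 CPM. Of 13 pyruvate dehydrogenase genes, the phosphatase Pdp2 was higher by 1.41 ± 0.28 (adjusted p = 0.00339) and Pcx, pyruvate carboxylase, was lower at -0.78 ± 0.26 (adjusted p = 0.0483). Pdk2, another kinase of the complex, did not pass (-0.16 ± 0.29, adjusted p = 0.766).

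Of 19 fatty acid genes, 5 were higher and 3 lower in reticular-like cells. Angptl4, an inhibitor of lipoprotein lipase, was 266 and 183 CPM against 63.4 and 43.9 CPM (2.09 ± 0.40, edgeR adjusted p = 0.00309). Pparg, the adipogenic nuclear receptor, was higher by 1.65 ± 0.26 (adjusted p = 0.000902). Fabp5, a fatty acid binding protein, was lower at -2.99 ± 0.38, Ucp2 at -1.01 ± 0.27 and Hadh at -0.58 ± 0.17. In the pentose phosphate list 1 of 7 genes, Tkt, was lower (-0.81 ± 0.19, adjusted p = 0.00905), and in the glycogen list 1 of 8, Gbe1, was higher (0.77 ± 0.19, adjusted p = 0.0143).

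**Figure D5:**
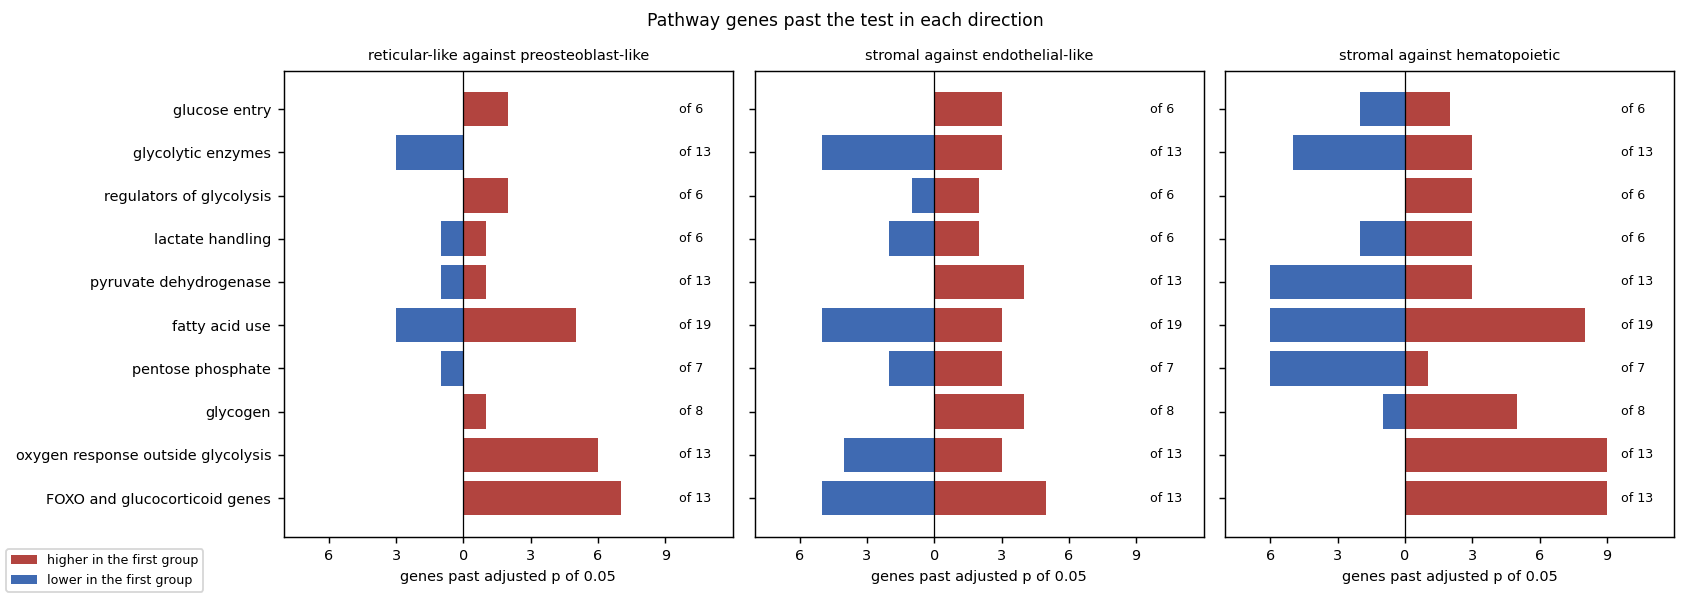
Number of genes of 10 fuel use lists called higher or lower (edgeR adjusted p under 0.05) in 3 comparisons of classes, with the number tested beside each bar. In the oxygen response list 6 of 13 genes are higher and 0 lower in reticular-like against preosteoblast-like cells, and 9 and 0 in stromal against blood cells. Of all genes, 22.8% are called in the former comparison, 11.4% higher and 11.4% lower. In the latter 75% are called, 40.7% higher and 34.2% lower.

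Between the stromal classes and endothelial-like cells, 56 of 104 genes passed, 32 higher and 24 lower in stroma, against 46.4% of all genes with 23.3% higher and 23.1% lower. The excess of higher genes did not hold with the size factors of DESeq2 in edgeR, which gave 29 in each direction. The median was 0.14 against 0.08 for all genes. Leaving out Mouse #1 gave 32 genes, 16 higher and 16 lower, and leaving out Mouse #2 gave 37, 17 higher and 20 lower. The pyruvate dehydrogenase list was higher in 4 of 13 genes and lower in 0. These included Pdk3, a further kinase of the complex (1.64 ± 0.22, edgeR adjusted p = 6.61e-05), Mpc2, of the mitochondrial pyruvate carrier (1.03 ± 0.13, adjusted p = 5.51e-05), and Pdha1, the catalytic subunit (0.90 ± 0.11, adjusted p = 3.33e-05). Lactate handling was split, with 2 of 6 genes higher and 2 lower. Ldhb, the subunit that favours pyruvate, was 87.7 and 84.9 CPM in stroma against 21 and 19.4 CPM (1.78 ± 0.17, edgeR adjusted p = 4.49e-06). Slc16a7 was 14.8 and 12.4 CPM in stroma with 0 UMIs in endothelial-like cells, at least 9.38-fold and 7.90-fold higher taking 3 UMIs per library as the floor. Slc16a3, which exports lactate, was lower at -3.34 ± 0.34 and Slc16a1 at -1.43 ± 0.29 (adjusted p = 7.74e-06 and 0.00160).

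Of 13 glycolytic enzymes, 3 were higher and 5 lower in stroma than in endothelial-like cells. Pkm was 88 and 107 CPM in stroma against 305 and 345 CPM (-1.43 ± 0.20, edgeR adjusted p = 9.11e-05), and Pfkp was lower at -1.60 ± 0.21. Tpi1 was higher by 0.66 ± 0.13 (adjusted p = 0.00150), and Eno2 and Eno3 were called higher on 0 to 2 endothelial-like UMIs. Of the 6 glucose entry genes 3 were higher, Slc2a10 by 1.53 ± 0.45, Slc2a8 by 0.50 ± 0.18, and Slc2a4 with 0 endothelial-like UMIs against 1.85 and 2.00 CPM in stroma, at least 1.18-fold and 1.27-fold higher on the same floor. Of 6 regulators, Pfkfb4 and Myc were higher by 2.25 ± 0.40 and 0.89 ± 0.25, the former on 4 and 3 endothelial-like UMIs, and Hif1a was lower at -0.69 ± 0.12. The fatty acid genes Cd36 and Fabp4, known from capillary endothelium, were lower in stroma at -8.54 ± 0.51 and -7.99 ± 0.52, and 5 of 19 were lower and 3 higher. Those higher were Cpt1c, Acadm and Ppard, by 1.88 ± 0.39, 0.63 ± 0.11 and 0.60 ± 0.21, and Ucp2 was lower at -3.95 ± 0.19. In the pentose phosphate list 3 of 7 were higher, G6pdx by 1.80 ± 0.24, Pgd by 1.57 ± 0.22 and Pgls by 0.50 ± 0.17, and Rpia and Taldo1 were lower at -0.94 ± 0.13 and -0.72 ± 0.10. In the glycogen list 4 of 8 were higher and 0 lower, with Gys1 at 1.47 ± 0.35, and Ppp1r3c on 1 and 2 endothelial-like UMIs. The oxygen response was divided, 3 of 13 higher and 4 lower. Vegfa was higher by 2.45 ± 0.27, P4ha1 by 0.89 ± 0.21 and Mxi1 by 0.64 ± 0.20, and Ndrg1, Ankrd37 and Epas1 were lower at -3.0 ± 0.18, -2.84 ± 0.43 and -1.45 ± 0.25. The FOXO and glucocorticoid list had 5 of 13 higher, with Irs2 by 3.94 ± 0.25, Foxo3 by 1.24 ± 0.24 and Tsc22d3 by 0.95 ± 0.29. It had 5 lower, with Insr at -2.02 ± 0.14, Foxo1 at -1.85 ± 0.24 and Sgk1 at -1.45 ± 0.28.

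Between the stromal classes and the 3 blood classes, 74 of 104 genes passed, 46 higher and 28 lower in stroma, close to the 75% of all genes called, of which 40.7% were higher and 34.2% lower. The median was 0.35 against 0.09 for all genes. Without Mouse #1 it was 45 genes. All 9 called genes of the oxygen response list, of 13, were higher in stroma, as were all 9 called of 13 in the FOXO and glucocorticoid list, with medians of 2.02 and 1.00. P4ha2, a prolyl hydroxylase of collagen, was higher by 3.63 ± 0.34, Adm by 2.66 ± 0.27 and Epas1 by 2.55 ± 0.20 (edgeR adjusted p = 9.08e-07, 1.61e-06 and 2.05e-07). Klf9, a responder to glucocorticoids, was 285 and 315 CPM in stroma against 32.2 and 28.6 CPM in blood (3.15 ± 0.097, edgeR adjusted p = 1.70e-10). Sgk1 was higher by 1.89 ± 0.24 and Zbtb16 by 1.85 ± 0.66. Hif1a was 144 and 141 CPM against 52.7 and 45.4 CPM (1.68 ± 0.099, adjusted p = 1.56e-08), and with Pfkfb3 at 1.10 ± 0.23 and Myc at 0.87 ± 0.16 it made 3 of 6 regulators higher and 0 lower.

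The pyruvate dehydrogenase list had 3 of 13 genes higher and 6 lower in stroma than in blood. Pdk2 was 9.25 and 8.62 CPM against 1.46 and 2.99 CPM (1.70 ± 0.25, edgeR adjusted p = 4.32e-05), and the phosphatase Pdp1 was higher by 1.66 ± 0.18 and Pdpr by 0.54 ± 0.18. The complex subunits Pdhb and Dlat were lower at -1.08 ± 0.085 and -0.50 ± 0.099, and the carrier Mpc1 at -0.52 ± 0.074. The pentose phosphate list was lower in 6 of 7 genes, with a median of -1.41, and with Rpia at -2.92 ± 0.081, Taldo1 at -2.45 ± 0.076 and Tkt at -2.14 ± 0.11. Pgd was higher by 0.41 ± 0.14, but its direction turned without the erythroid-like cells, at -0.20, and with the cells of all classes pooled on each side, at -0.80. Of 13 glycolytic enzymes 3 were higher and 5 lower, with Eno2 at 4.52 ± 0.51, Bpgm at -2.11 ± 0.16 and Gapdh, which has many copies, at -1.29 ± 0.089. Gpi1 was at -1.03 ± 0.082. Bpgm, which serves red cells, was 107 and 188 CPM in erythroid-like cells. Pfkm was higher by 0.49 ± 0.16, but was at -0.34 with the classes pooled and then did not pass (edgeR adjusted p = 0.188), and was at 1.83 without the erythroid-like cells. Pfkp was higher by 0.65 ± 0.21, but lower at -0.48 with the classes pooled and at -0.55 without the erythroid-like cells.

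Lactate genes were higher in 3 of 6 and lower in 2 in stroma against blood, with Slc16a7 at 4.44 ± 0.35, Ldhb at 1.96 ± 0.12 and Bsg at 0.29 ± 0.085, and with Slc16a1 at -2.76 ± 0.19 and Slc16a3 at -1.83 ± 0.59. Slc16a3 was 109 and 169 CPM in myeloid-like cells, the class with the highest Slc2a3. Of 6 glucose entry genes, Slc2a10 and Slc2a8 were higher by 3.21 ± 0.34 and 0.86 ± 0.11, and Hk3, the hexokinase of white cells, was lower at -5.15 ± 0.85. Slc2a6 was called lower on 3 and 5 stromal UMIs, and Hk3 had 5 and 18 there. Of 19 fatty acid genes 8 were higher and 6 lower, with Cpt1c at 2.92 ± 0.27, Angptl4 at 2.79 ± 0.29 and Pparg at 1.94 ± 0.22. Those lower included Ucp2, 3.90 and 3.21 CPM in stroma against 575 and 584 CPM in blood (-7.43 ± 0.17, edgeR adjusted p = 2.66e-11), Cd36 at -4.49 ± 0.69 and Acsl1 at -2.39 ± 0.14. In the glycogen list 5 of 8 were higher and 1 lower, with Ppp1r3c, a scaffold of glycogen synthase, at 5.07 ± 0.59, Pygm at 2.05 ± 0.34 and Pygb at 1.21 ± 0.16, and with Pygl, the liver phosphorylase, at -2.73 ± 0.40.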

How the data were processed

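The deposited files hold whole-number UMI counts for every feature in every barcode, not normalized, which the authors made with Cell Ranger 3.0.0 per the file headers, on mm10 with added reporter sequences. Barcodes without cells were listed too. Seurat is named in the submitters' processing notes and left no values here. No per-sample column was left out. The members and lists were chosen with earlier results of these data known.

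Cells were barcodes from 1000 genes upwards and up to 15% mitochondrial UMIs, clustered with scanpy 1.11.5 and leidenalg 0.10.2 (2000 variable genes, 30 components, 15 neighbours, resolution 0.5), without the members, list genes, mt- genes, tdTomato and eGFP. A cluster took the name of the marker list with the largest share of markers raised at least 1.5 times and detected in at least 10% of cells, if at least 3 were raised. It stayed unnamed where its 10 leading genes held at least as many markers of another list as of its own, with at least 1, which applied to the Acta2-led cluster because Acta2 is a mural marker, where its depth was far below that of the library with no own marker leading, or where cell cycle genes led. Names were rebuilt here and may differ from those of the study. Doublets were kept, and removing the highest Scrublet scores at an expected 0.8% per 1000 cells was an alternative.

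Sums of counts over the cells of a class in a mouse, with the mouse as replicate, were tested with edgeR 4.0.16 (R 4.3.3; TMM scaling, filterByExpr, quasi-likelihood test, Benjamini-Hochberg adjustment over all genes, threshold 0.05), with DESeq2 1.42.0 as an alternative. All 7 classes shared 1 fit. The edgeR script was tested on simulated data. The text names, per list and comparison, up to 3 called genes in each direction with the largest change and the same direction in both mice, and by likeness 5 genes for Pdk4 and 3 for each other member. Some genes that this rule names are not reported here. Pdk2 was named after its values were seen. The pairing of classes comes from the animals: deviations of the same mouse correlated at 0.0247 to 0.285 over 21 pairs of classes and at 0.513 for tdTomato-positive and tdTomato-negative cells. CPM values beside the tdTomato comparison carry the TMM scaling. Poisson and Wilson intervals and the floor of 3 UMIs cover counting error only. With 2 mice, p-values rest on the spread of these animals, which edgeR estimates in part from all genes together. In the tdTomato comparison with the block they rest in effect on that shared estimate alone.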

Additional observations from a re-analysis of the deposited data

Results flagged for a closer look

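Pdk4 was also seen in the cells that took no class name, which enter no comparison above, at levels above the blood cells but, in the F830016B08Rik-led cluster, near that of free RNA. The cluster led by F830016B08Rik, of 58 and 144 cells with a median of only 3154 UMIs, held 54.6 CPM as the mean of the mice, 69.3 and 39.8 CPM on 14 and 19 UMIs, where free RNA held 55.1 and 66.6 CPM. The cluster led by Acta2, of 66 and 82 cells with cell cycle genes among its leading genes, held 117 CPM, 96.9 and 136 CPM in the mice. It had 6 of the 8 preosteoblast markers raised. Blood cells held 3.66 and 4.90 CPM.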

How the results depend on the processing

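The Pdk4 level of reticular-like cells (36.8 CPM) was 33.3 with TMM scaling and 35.7 to 38.0 with 1 mouse left out. That of preosteoblast-like cells (164.5 CPM) was 167 without the highest Scrublet scores, 136 at resolution 1.0, 147 with TMM scaling, 177 in the cluster not led by Bglap and 68.7 in the Bglap-led one, and 163 to 166 with 1 mouse left out. At resolution 1.0 a cluster of 153 and 239 cells stayed unnamed because its leading genes held mural markers, and so left this class. It had 6 of the 8 preosteoblast markers raised and Pdk4 among its leading genes. Its part in the lower level was not tested. The share of cells with a Pdk4 UMI was 13.4% at 5000 UMIs and 25.4% without thinning in reticular-like cells (5.93% at 2000), and 43.4 and 66.0% in preosteoblast-like cells (24.1%). With 1 mouse left out the shares were 5.37 to 6.49% and 21.6 to 26.5%. Leaving out the sums of 1 mouse gave 7 to 16 called list genes for reticular-like against preosteoblast-like cells (34 with both), 32 to 37 for stroma against endothelial-like cells (56) and 45 to 62 for stroma against blood (74), where a lone sum is assumed to vary like the other classes. The other alternatives gave 34 to 45, 56 to 62 and 74 to 81. The block for mouse gave 43, 60 and 74. For the 10 members by tdTomato, the block gave 2 calls, as it did with the stricter cell limits and without the highest Scrublet scores, and every other setting gave 0. Of 1070 alternative values for 114 named list results, 1031 kept their direction and side of the threshold, 34 lost the threshold and 5 turned. Values with 1 mouse left out are not among the 1070. The named results were chosen as called and alike in direction in both mice, which favours such agreement. In stroma against blood, pooling the classes gave -0.48 for Pfkp, -0.34 for Pfkm and -0.80 for Pgd, and leaving out erythroid-like cells gave -0.55 for Pfkp and -0.20 for Pgd. The cause was not tested. The settings that leave out erythroid-like cells or the Bglap-led cluster, leave out sums or join the block with another limit were chosen after seeing the data. Pdk4 in endothelial-like and blood classes rests on 5 to 34 UMIs per mouse, so their order was not detectable at this depth.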
